A study of Mus musculus with 9 samples.

Results

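The genes described here encode the NF-kB transcription factor subunits (Nfkb1, Nfkb2, Rel, Rela, Relb) and the IkB proteins that restrain or modify them (Nfkbia, Nfkbib, Nfkbie, Nfkbiz, Bcl3). They were chosen by name, with earlier results of these data known. All 10 were found among the 21959 genes of the deposited table and passed the filter on low counts. The cells were DC2.4, an established dendritic line of mouse, and 9 total RNA libraries were sequenced. These form 3 groups of 3, labelled PBSDC, OMVSSDC and ZJDC, all of the same line and with no genotype stated. According to the series text the cells met engineered extracellular vesicles, but the labels do not expand OMVSS or ZJ, and give no dose, time or culture of origin. PBSDC served as the reference, since PBS conventionally stands for phosphate-buffered saline. The labels do not say if each library had its own culture, so p-values measure only the spread between these libraries, which may be technical.

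In resting cells NF-kB dimers are held in the cytoplasm by the classical IkB proteins. In the canonical pathway, signals from Toll-like or cytokine receptors activate the IKK complex, which phosphorylates the IkB proteins and marks them for degradation, so that dimers containing RelA, c-Rel or p50 enter the nucleus. In the non-canonical pathway, the kinase NIK drives processing of the p100 product of Nfkb2 to p52, which pairs with RelB. Several IkB and subunit genes are themselves NF-kB targets, which gives feedback, and in dendritic cells c-Rel and RelB are known for roles in cytokine production and maturation. Transcript levels do not report on phosphorylation, degradation, precursor processing or nuclear entry, which are the steps that set NF-kB activity.

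Library totals ranged from 12784931 to 18388959 counts, and the lowest count of any member in any library was 180, for Nfkbie. OMVSSDC replicates 1 and 2 resembled each other (chi-square per degree of freedom 1.87) and stood apart from OMVSSDC replicate 3 (59.3 and 61.8), which differed less from the ZJDC libraries (7.43 to 10.2) than from its own group. Long genes were also counted differently. The median log2 deviation of the longest genes minus that of the shortest, taken by quartile of gene length, was -0.252 and -0.240 in OMVSSDC replicates 1 and 2, 0.137 in OMVSSDC replicate 3, and 0.00124 to 0.134 in the other 6 libraries. The members' results on OMVSSDC are therefore also given without replicate 3. Of 10 dendritic or myeloid markers, which summed to between 3869 and 4641 CPM in every library, 9 exceeded 1 CPM (counts scaled to library size by TMM) in each group. The exception was Flt3, at no more than 0.289 CPM in any library. Within that sum, markers moved both ways. Group means in PBSDC, OMVSSDC and ZJDC were 336, 119 and 164 CPM for Itgam and 1131, 564 and 554 for Csf1r. They were 860, 1359 and 1520 CPM for Cd68 and 411, 739 and 733 for Cd74. Itgax (2.05, 4.07 and 4.31 CPM) and Zbtb46 (3.42, 8.04 and 6.68 CPM) were low in every group. The 6 lymphoid markers summed to at most 1.15 CPM and the 5 epithelial markers to at most 1.76 CPM. Summed levels of 10 heart or brain markers were 44.8 to 48.8 CPM in PBSDC, 14.5 to 26.4 CPM in OMVSSDC and 27.3 to 31.6 CPM in ZJDC, with Myl7 at 0 in every library. Those of 6 fibroblast or endothelial markers were 26.1 to 29.0, 10.2 to 23.8 and 14.4 to 17.7 CPM. By group mean, 5 of these 6 exceeded 1 CPM in each group. In OMVSSDC, Col1a1 (3, 1 and 52 counts) and Col1a2 (2, 0 and 70) did so only through replicate 3. Summed levels of 6 granulocyte or erythroid markers were 0.531 to 1.24, 0.224 to 8.66 and 0.376 to 0.939 CPM. The highest was in OMVSSDC replicate 1, with 55 counts of Hba-a1, beside 0 and 0 in replicates 2 and 3. The part of these traces in the results was not tested.

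The promoters of the members with a RefSeq entry were examined for the sequence that NF-kB dimers bind, the decameric kB consensus site, searched on both strands in the 250 bases before each annotated start. RefSeq sequences on build GRCm38.p6 matched 7 of the 10 members, with 9 start windows in all; Nfkb1, Relb and Nfkbiz had no entry. Of these 7 genes, 4 held at least 1 site (Rel, Nfkb2, Nfkbia and Nfkbie), against 8.23% of 27025 genes and 7.25% of 32851 windows. Capitals mark the matches, and sites that overlap are joined. The first 4 sequences are shown because they carry sites, and those of Rela and Nfkbib as 2 of the 3 that carry none; the third is Bcl3, which rose in both comparisons and is not printed. Of the 3 Nfkb2 windows, the first is printed.
Nfkbia (chr12:55492648-55492897, minus strand): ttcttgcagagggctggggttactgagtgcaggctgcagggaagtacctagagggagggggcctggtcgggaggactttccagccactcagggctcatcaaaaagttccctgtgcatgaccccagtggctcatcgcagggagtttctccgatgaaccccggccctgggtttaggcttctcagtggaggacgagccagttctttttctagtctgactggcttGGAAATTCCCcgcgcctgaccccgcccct
Nfkbie (chr17:45555450-45555699, plus strand): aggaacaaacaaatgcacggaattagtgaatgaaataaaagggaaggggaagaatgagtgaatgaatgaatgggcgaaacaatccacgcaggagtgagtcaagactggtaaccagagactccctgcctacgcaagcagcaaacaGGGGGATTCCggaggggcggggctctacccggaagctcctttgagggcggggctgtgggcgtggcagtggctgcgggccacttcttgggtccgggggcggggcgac
Nfkb2 (chr19:46304487-46304736, plus strand): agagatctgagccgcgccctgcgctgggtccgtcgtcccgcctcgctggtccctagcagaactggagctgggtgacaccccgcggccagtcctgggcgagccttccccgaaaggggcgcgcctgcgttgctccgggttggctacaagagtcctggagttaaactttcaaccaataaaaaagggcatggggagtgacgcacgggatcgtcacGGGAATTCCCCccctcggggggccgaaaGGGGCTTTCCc
Rel (chr11:23770970-23771219, minus strand): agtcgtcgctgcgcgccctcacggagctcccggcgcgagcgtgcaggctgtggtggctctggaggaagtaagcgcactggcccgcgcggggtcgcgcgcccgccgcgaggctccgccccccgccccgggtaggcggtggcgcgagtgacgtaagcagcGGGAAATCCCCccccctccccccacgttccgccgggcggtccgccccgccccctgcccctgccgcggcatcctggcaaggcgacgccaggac
Rela (chr19:5637291-5637540, plus strand): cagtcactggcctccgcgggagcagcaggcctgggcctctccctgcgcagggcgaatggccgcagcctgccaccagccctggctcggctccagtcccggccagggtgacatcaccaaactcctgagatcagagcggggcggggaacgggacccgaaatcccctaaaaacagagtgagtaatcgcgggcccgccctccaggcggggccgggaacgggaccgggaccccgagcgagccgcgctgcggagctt
Nfkbib (chr7:28766645-28766894, minus strand): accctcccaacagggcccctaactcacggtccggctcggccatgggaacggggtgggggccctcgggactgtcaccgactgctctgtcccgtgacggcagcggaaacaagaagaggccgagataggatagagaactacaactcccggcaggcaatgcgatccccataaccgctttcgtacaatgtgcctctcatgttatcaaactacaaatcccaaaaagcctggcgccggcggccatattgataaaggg
The Nfkbia match reads GGGAATTTCC on the opposite strand, from 29 to 20 bases before the start. The Nfkb2 window holds GGGAATTCCC, which reads the same on both strands, and GGGGCTTTCC, from 11 to 2 bases before the start, while its other windows hold GGGACATTCC and GGGACTTTCC. The Rel matches overlap at a single place, GGGAAATCCC from 92 to 83 bases before the start, and the Nfkbie match is GGGGGATTCC. These are descriptions of letters. Binding was not measured here, and Nfkbib, which has no match in this window, rose as Nfkbia did. For the windows of Nfkbib and Nfkbie and the Nfkb2 window with GGGACATTCC, the bases just after the start matched no reference transcript of the gene. Whether these windows precede a start used in these cells was not tested.

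Against PBSDC, 8 of the 10 members rose in OMVSSDC and 9 of 10 rose in ZJDC, and 0 fell in either comparison. Over all 11568 genes tested, 33.4% rose and 30.2% fell in OMVSSDC, and 27.6% rose and 27.1% fell in ZJDC. The median log2 fold change of the members was 0.72 in OMVSSDC and 0.68 in ZJDC, beside 0.05 and 0.01 over all genes tested. Groups did not overlap for 8 members in OMVSSDC (65.7% of all genes) and for 10 in ZJDC (72.2% of all genes). The tests were contrasts of edgeR's quasi-likelihood model, with adjusted p under 0.05 as the threshold. The count of 0 lower members was also 0 at an unadjusted p under 0.05, with DESeq2 and with limma-voom. The count of higher members in OMVSSDC was 7 with DESeq2 and with limma-voom, beside 3710 and 3750 of 11568 genes. In ZJDC it was 9 with each, beside 3166 and 3181 of 11568 genes. Both comparisons share the PBSDC libraries, and in bulk RNA more cells carrying a transcript and more of it per cell cannot be told apart. The count of higher members in OMVSSDC was 9 without OMVSSDC replicate 3. In that fit 8813 of 11761 genes passed in either direction, 52% of them higher, beside 7358 of 11568 with all libraries. The fit with OMVSSDC replicate 3 alone, used for values below, assumes the spread of the other groups. With a trend in gene length and GC content removed, the count of higher members in OMVSSDC was 7. In that fit 7615 of 11568 genes passed in either direction in OMVSSDC, 50.2% of them higher. In ZJDC the calls of Rela and Bcl3 were lost with the trend removed.

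**Figure D1:**
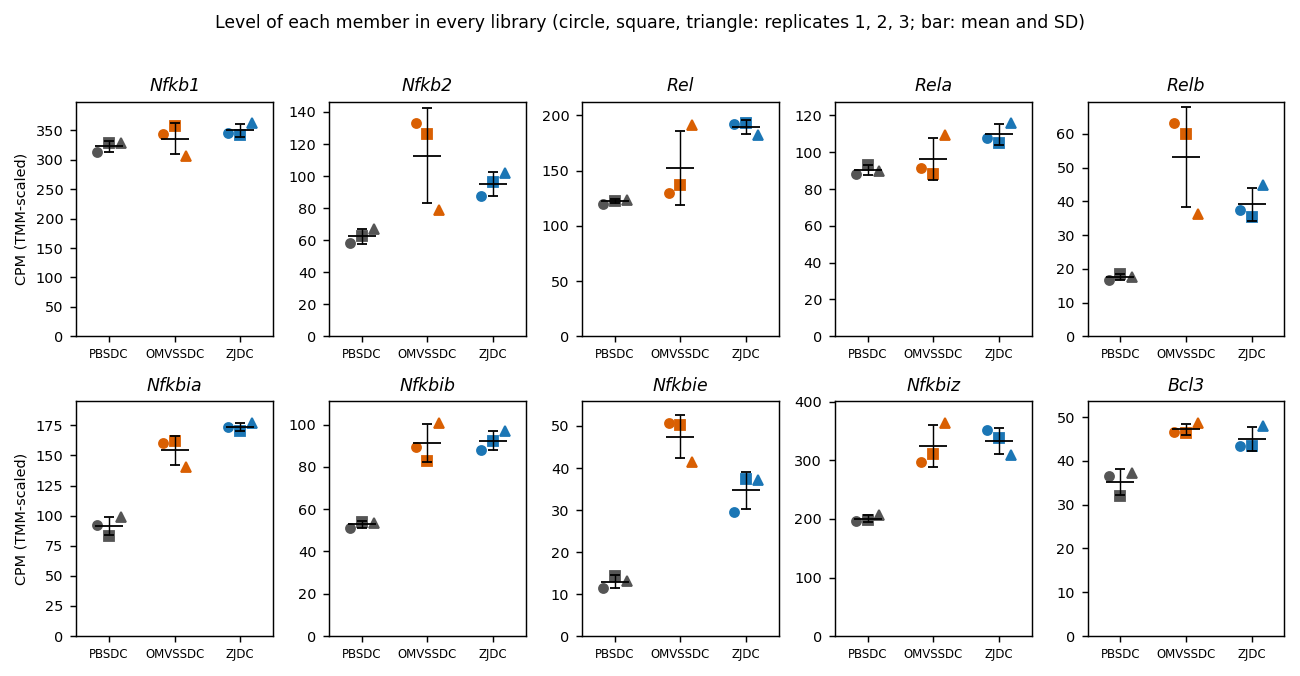
Level of each member in the 9 libraries, in TMM-scaled CPM on axes that start at 0; symbols are replicates 1, 2 and 3, and bars give the mean and SD of each group (n = 3). Nfkbie and Relb show the widest gap to PBSDC relative to their level, and Nfkb1 stays between 307 and 363 CPM in all libraries.

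Among the subunits, Relb, whose product pairs chiefly with p52 or p50, changed by the largest fold. Relb (chromosome 7, 19340142 to 19363363) stood at 16.7, 18.5 and 17.7 CPM in PBSDC, at 63.3, 60.1 and 36.3 CPM in OMVSSDC, and at 37.5, 35.4 and 44.7 CPM in ZJDC. All OMVSSDC and ZJDC libraries lay above all PBSDC libraries, and OMVSSDC replicate 3 lay within the ZJDC range. On the log2 scale Relb rose by 1.59 (SE 0.192, adjusted p = 4.94e-05) in OMVSSDC, or 3.02-fold, and by 1.16 (SE 0.192, adjusted p = 0.000583) in ZJDC, or 2.23-fold. The OMVSSDC value was 1.81 without replicate 3, and 1.04 with that library alone.

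Nfkb2, which encodes p100, the precursor of p52 and itself an inhibitor of RelB, rose in both comparisons, as Relb did, by a smaller fold. Nfkb2 (chromosome 19, 46292759 to 46300824) stood at 57.9, 62.4 and 67.3 CPM in PBSDC, at 133, 126 and 78.6 CPM in OMVSSDC, and at 87.3, 96.3 and 102 CPM in ZJDC. OMVSSDC replicate 3 again lay far below replicates 1 and 2, and here below the ZJDC range. The log2 fold change was 0.85 (SE 0.169, adjusted p = 0.00145) in OMVSSDC and 0.61 (SE 0.169, adjusted p = 0.0117) in ZJDC. In OMVSSDC it was 1.05 without replicate 3, and 0.33 with that library alone (adjusted p = 0.00279). The gene shares 299 bases with Psd on the other strand, and since strand-specific counting is not stated, a part of its reads could belong there.

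Rel, which encodes c-Rel, an activating subunit prominent in lymphoid and myeloid cells, behaved in the opposite way across the OMVSSDC replicates. Rel (chromosome 11, 23686847 to 23720970) stood at 120, 122 and 124 CPM in PBSDC, at 130, 137 and 191 CPM in OMVSSDC, and at 193, 193 and 182 CPM in ZJDC. In OMVSSDC replicates 1 and 2 it was only slightly above PBSDC, and replicate 3 was at the ZJDC level. Rel rose by 0.63 (SE 0.125, adjusted p = 0.00176) on the log2 scale in ZJDC. In OMVSSDC it passed narrowly, at 0.32 (SE 0.125, adjusted p = 0.0457). That value was 0.13 without OMVSSDC replicate 3 (adjusted p = 0.0255) and 0.64 with that library alone, and the call was lost without PBSDC replicates 1, 2 or 3 (adjusted p = 0.115, 0.111 and 0.0975) or ZJDC replicates 1, 2 or 3 (0.0656, 0.0673 and 0.0680). It was also lost with RLE scaling (0.0713), DESeq2 (0.0642), limma-voom (0.0569) and a fit of these 2 groups only (0.113). The call held with the length and GC trend removed (0.39, adjusted p = 0.00142).

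Rela, which encodes the main activating subunit p65, changed little. Rela (chromosome 19, 5687511 to 5698158) stood at 88.0, 93.3 and 90.0 CPM in PBSDC, at 91.4, 88.0 and 109 CPM in OMVSSDC, and at 108, 105 and 116 CPM in ZJDC. OMVSSDC overlapped PBSDC, while ZJDC lay above it. The rise in ZJDC was 0.28 (SE 0.0862, adjusted p = 0.0192), and it did not pass without PBSDC replicate 1 (0.0691), PBSDC replicate 3 (0.0590) or ZJDC replicate 3 (0.0807), or once the trend in length and GC was removed (0.145). In OMVSSDC the log2 fold change was 0.09 (95% interval -0.10 to 0.28, adjusted p = 0.388), and with OMVSSDC replicate 3 alone it was 0.27 (adjusted p = 0.00264).

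Nfkb1, which encodes p105 and its processed form p50, did not pass in any comparison. Nfkb1 (chromosome 3, 135290416 to 135397308) stood at 313, 329 and 328 CPM in PBSDC, at 343, 357 and 307 CPM in OMVSSDC, and at 345, 343 and 363 CPM in ZJDC. The ZJDC libraries all lay above PBSDC, while OMVSSDC replicate 3 was the lowest of the 9 libraries. The log2 fold change was 0.05 (95% interval -0.10 to 0.21) in OMVSSDC and 0.11 (95% interval -0.04 to 0.27, adjusted p = 0.182) in ZJDC. Without OMVSSDC replicate 3, where the estimated spread is smaller, Nfkb1 passed at 0.11 in OMVSSDC (adjusted p = 0.0198) and 0.12 in ZJDC (0.0101).

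The 3 classical IkB genes rose in both comparisons. Nfkbia encodes IkB-alpha, the inhibitor that is resynthesised fastest after NF-kB activation. Nfkbia (chromosome 12, 55536195 to 55539432) stood at 92.3, 83.3 and 98.7 CPM in PBSDC, at 160, 162 and 140 CPM in OMVSSDC, and at 173, 170 and 177 CPM in ZJDC. The 3 groups did not overlap, with ZJDC the highest. The rise was 0.75 (SE 0.0815, adjusted p = 2.30e-05) in OMVSSDC and 0.93 (SE 0.0816, adjusted p = 8.32e-06) in ZJDC on the log2 scale. The OMVSSDC value was 0.82 without replicate 3, and 0.61 with that library alone.

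Nfkbie, which encodes IkB-epsilon, an inhibitor that acts mainly on RelA and c-Rel dimers, had the largest fold change of all 10 members. Nfkbie (chromosome 17, 45866629 to 45874095) stood at 11.3, 14.3 and 13.1 CPM in PBSDC, at 50.8, 50.1 and 41.5 CPM in OMVSSDC, and at 29.6, 37.4 and 37.1 CPM in ZJDC. The groups again did not overlap, but here OMVSSDC was the highest. The rise was 1.88 (SE 0.134, adjusted p = 1.25e-06), or 3.68-fold, in OMVSSDC, and 1.42 (SE 0.134, adjusted p = 1.29e-05), or 2.68-fold, in ZJDC. The OMVSSDC value was 1.97 without replicate 3, and 1.68 with that library alone.

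Nfkbib, which encodes IkB-beta, an inhibitor that is degraded and resynthesised more slowly, rose to nearly the same level in both groups. Nfkbib (chromosome 7, 28457676 to 28466937) stood at 51.0, 54.0 and 53.5 CPM in PBSDC, at 89.5, 83.0 and 101 CPM in OMVSSDC, and at 88.1, 92.2 and 96.9 CPM in ZJDC. The log2 fold change was 0.79 (SE 0.0812, adjusted p = 1.65e-05) in OMVSSDC and 0.81 (SE 0.0811, adjusted p = 2.01e-05) in ZJDC. In OMVSSDC it was 0.71 without replicate 3, and 0.93 with replicate 3 alone. The gene shares 778 bases with Sirt2 on the other strand, a gene with more counts over all libraries (14380 against 11147), so part of the Nfkbib signal could belong to Sirt2.

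The atypical IkB genes encode nuclear proteins that modify rather than sequester NF-kB, and both rose. Nfkbiz, whose product IkB-zeta is needed for a second wave of target genes in myeloid cells, stood at 197, 198 and 207 CPM in PBSDC, at 298, 311 and 364 CPM in OMVSSDC, and at 352, 339 and 309 CPM in ZJDC (chromosome 16, 55631738 to 55659262). OMVSSDC and ZJDC overlapped, and both lay above PBSDC. The rise was 0.69 (SE 0.0853, adjusted p = 5.74e-05) in OMVSSDC and 0.73 (SE 0.0854, adjusted p = 5.53e-05) in ZJDC on the log2 scale. Without OMVSSDC replicate 3 the first value was 0.60, and with it alone 0.86. Bcl3, which encodes a partner of p50 and p52 homodimers, stood at 36.6, 31.9 and 37.3 CPM in PBSDC, at 46.7, 46.4 and 48.7 CPM in OMVSSDC, and at 43.5, 43.4 and 48.1 CPM in ZJDC (chromosome 7, 19542387 to 19556695). The rise of Bcl3 was 0.42 (SE 0.0826, adjusted p = 0.00127) in OMVSSDC and 0.35 (SE 0.0826, adjusted p = 0.00469) in ZJDC, and the first was 0.40 without OMVSSDC replicate 3 and 0.46 with it alone. Both calls of Bcl3 were lost with the length and GC trend removed (0.11, adjusted p = 0.452, and 0.28, adjusted p = 0.0791). Gene coordinates are those of the deposited table, for which no source used here names a build, and should not be read on the build of the promoter sequences.

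**Figure D2:**
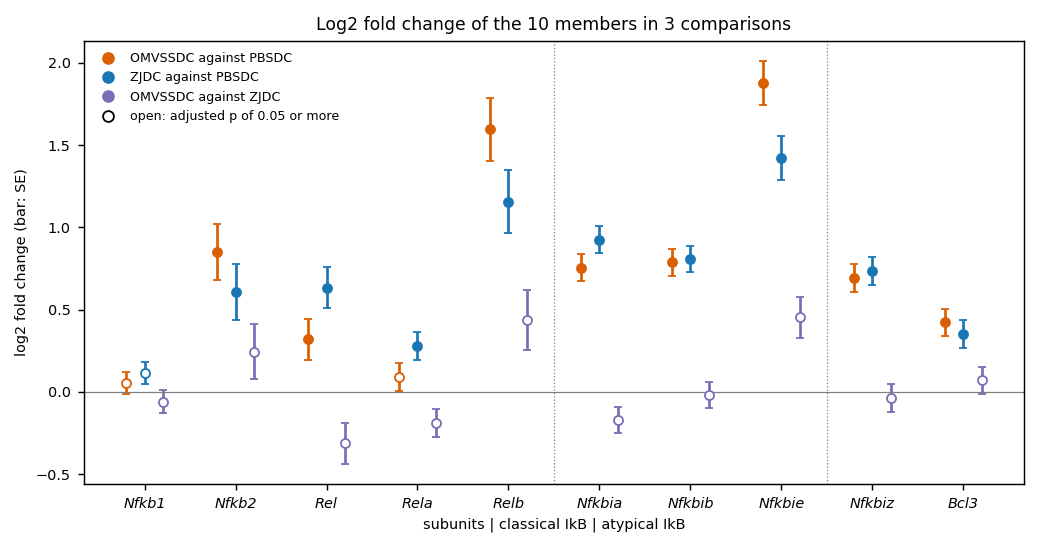
Log2 fold changes of the 10 members with their standard errors in the 3 comparisons, from the model over 9 libraries; filled points passed at an adjusted p under 0.05. The values against PBSDC reach 1.88 for Nfkbie, and no member passed between OMVSSDC and ZJDC.

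A further atypical IkB gene, Nfkbid, was not among the 10 and was examined in the list of other negative regulators. Its product IkB-NS is a nuclear inhibitor of some NF-kB targets. Nfkbid had 745, 693 and 606 counts in PBSDC, 210, 298 and 211 counts in OMVSSDC and 342, 263 and 387 counts in ZJDC. It fell from 45.2 ± 1.99 CPM in PBSDC to 15.4 ± 1.20 CPM in OMVSSDC and 20.2 ± 0.814 CPM in ZJDC (SD, n = 3 in each group). The log2 fold changes were -1.56 (SE 0.0877, adjusted p = 2.77e-07) and -1.16 (SE 0.0858, adjusted p = 2.57e-06), so that it fell while Nfkbiz and Bcl3 rose. Between OMVSSDC and ZJDC it differed by -0.39 (adjusted p = 0.0545), and without OMVSSDC replicate 3 that difference passed (adjusted p = 0.00359).

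OMVSSDC and ZJDC were compared directly to ask whether they differed in these genes. No member passed: 0 of 10 were higher or lower by edgeR, where 0.856% of all genes were higher and 1.1% lower. At an unadjusted p under 0.05, 2 were higher in OMVSSDC (Relb and Nfkbie) and 1 lower (Rel), where 17.2% of all genes were higher and 14.5% lower. DESeq2 called 1 higher, Nfkbie, and limma-voom 0, beside 14.2% and 2.79% of all genes in either direction. Groups did not overlap for 2 members, Nfkbia and Nfkbie, beside 24% of all genes. The difference was 0.45 for Nfkbie (95% interval 0.18 to 0.73, adjusted p = 0.0728), 0.44 for Relb (0.03 to 0.84, adjusted p = 0.136), 0.24 for Nfkb2 (-0.13 to 0.62) and -0.31 for Rel (-0.59 to -0.04, adjusted p = 0.126) on the log2 scale. That of Nfkbia was -0.17 (-0.35 to 0.01, adjusted p = 0.170), and once the trend in length and GC was removed it passed at -0.41 (adjusted p = 0.0236).

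This comparison turned on OMVSSDC replicate 3. Without it, 3 members were higher in OMVSSDC (Relb by 0.64, Nfkbie by 0.54 and Nfkb2 by 0.44) and 3 lower (Rel by 0.51, Rela by 0.30 and Nfkbiz by 0.13), with adjusted p from 1.43e-09 to 0.0256. In that fit 6539 of all genes passed against 226 with all libraries. With OMVSSDC replicate 3 alone against ZJDC, 0 members were higher and 1 lower, Nfkbia, by a log2 fold change of -0.32 (adjusted p = 0.0161). OMVSSDC replicate 3 minus the mean of replicates 1 and 2 was -0.77 for Relb, -0.72 for Nfkb2, -0.28 for Nfkbie, -0.20 for Nfkbia and -0.19 for Nfkb1 on the log2 scale. The same difference was 0.52 for Rel, 0.29 for Rela, 0.26 for Nfkbiz, 0.23 for Nfkbib and 0.07 for Bcl3. Replicates 1 and 2 differed from each other by at most 0.11 in any member. The non-canonical pair Relb and Nfkb2 was higher, and Rel lower, in those libraries than in replicate 3. The length trend given above also separates these libraries. With the length and GC trend removed, the difference between OMVSSDC and ZJDC was 0.29 for Relb, 0.08 for Nfkb2 and -0.20 for Rel, and 0 members were higher and 1 lower. A batch, a mislabelled library and a difference between replicates cannot be told apart within OMVSSDC, and the OMVSSDC means over 3 libraries rest on the label of replicate 3.

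**Figure D3:**
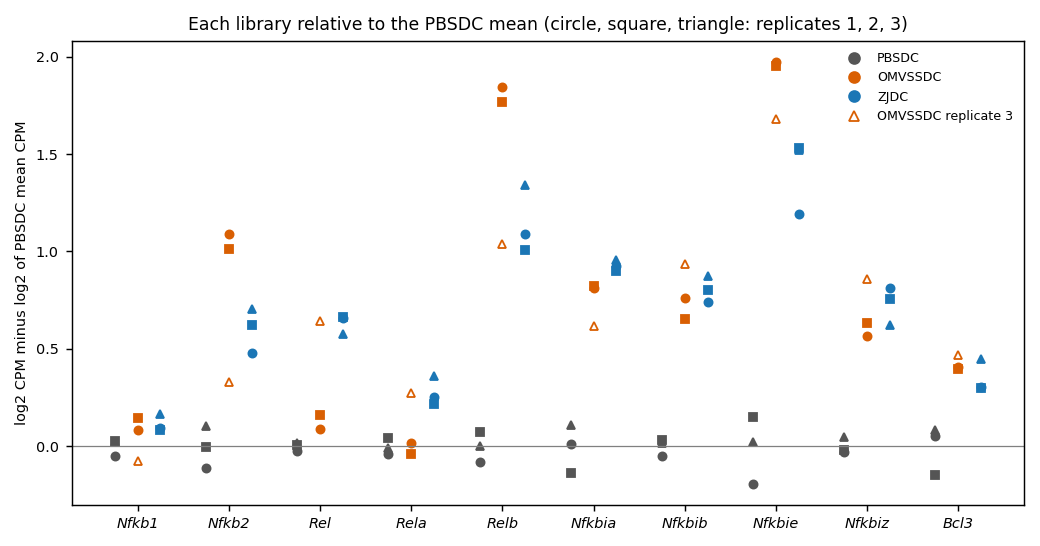
Each library's log2 CPM minus the log2 of the PBSDC mean, by member; symbols are replicates 1, 2 and 3, and the open triangle is OMVSSDC replicate 3. For Relb and Nfkb2 the open triangle lies below the other OMVSSDC points, and for Rel it lies above them at the level of ZJDC.

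Levels were compared between genes as CPM per kilobase of the table's gene length. In PBSDC the order of the subunits was Rela (29.4 ± 0.864), Nfkb1 (26.8 ± 0.776), Rel (16.4 ± 0.232), Nfkb2 (13.6 ± 1.02) and Relb (4.54 ± 0.235; SD, n = 3), and the libraries of neighbours in that order did not overlap. Relb made up 4.91% to 5.16% of the summed subunit level in PBSDC, 11.6% in OMVSSDC (8.26% to 13.5%) and 8.33% in ZJDC (7.67% to 9.14%). Nfkb1 and Rela took smaller shares. Nfkb1 went from 29.5% in PBSDC to 23.6% in OMVSSDC and 24.0% in ZJDC, and Rela from 32.4% to 26.7% and 29.5%. By library, Rela was 24.6% and 24.0% in OMVSSDC replicates 1 and 2 but 31.5% in replicate 3, just under PBSDC (31.8% to 32.8%). The Nfkb2 share was 24.0% and 23.0% in OMVSSDC replicates 1 and 2 and 15.2% in replicate 3, while PBSDC lay between 14.4% and 15.9%. The Rel share was 14.4% and 15.3% in OMVSSDC replicates 1 and 2 and 22.6% in replicate 3, beside 19.4% to 21.8% in ZJDC.

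Nfkbia was the most abundant IkB transcript per kilobase in every group, at 56.8 ± 4.82 in PBSDC, 95.7 ± 7.55 in OMVSSDC and 108 ± 2.16 CPM per kilobase in ZJDC. Nfkbiz followed, at 40.0 ± 1.15, 64.7 ± 7.03 and 66.4 ± 4.38 CPM per kilobase. Nfkbie was the least abundant, and its share of the 5 IkB genes was 3.05% in PBSDC, 6.58% in OMVSSDC and 4.62% in ZJDC. The summed level of the 5 IkB genes divided by that of the 5 subunits was 1.58, 1.45 and 1.59 in PBSDC, 1.95, 1.97 and 2.12 in OMVSSDC, and 2.08, 2.07 and 1.97 in ZJDC. All OMVSSDC and ZJDC libraries were above all PBSDC libraries. The ratio was 1.31-fold higher in OMVSSDC and 1.33-fold higher in ZJDC than in PBSDC (two-sided exact permutation test, p = 0.1 each, the smallest that 3 against 3 libraries allow). The log2 difference between OMVSSDC and PBSDC was 0.39, and 0.35 without OMVSSDC replicate 3. The ratio did not separate OMVSSDC from ZJDC (0.987-fold, exact permutation p = 0.9). It is a ratio of transcripts, and protein was not measured here. Nfkbid is not in the IkB sum, and it fell from 19.3 CPM per kilobase in PBSDC to 6.55 in OMVSSDC and 8.62 in ZJDC. A ratio that includes Nfkbid was not computed.

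**Figure D4:**
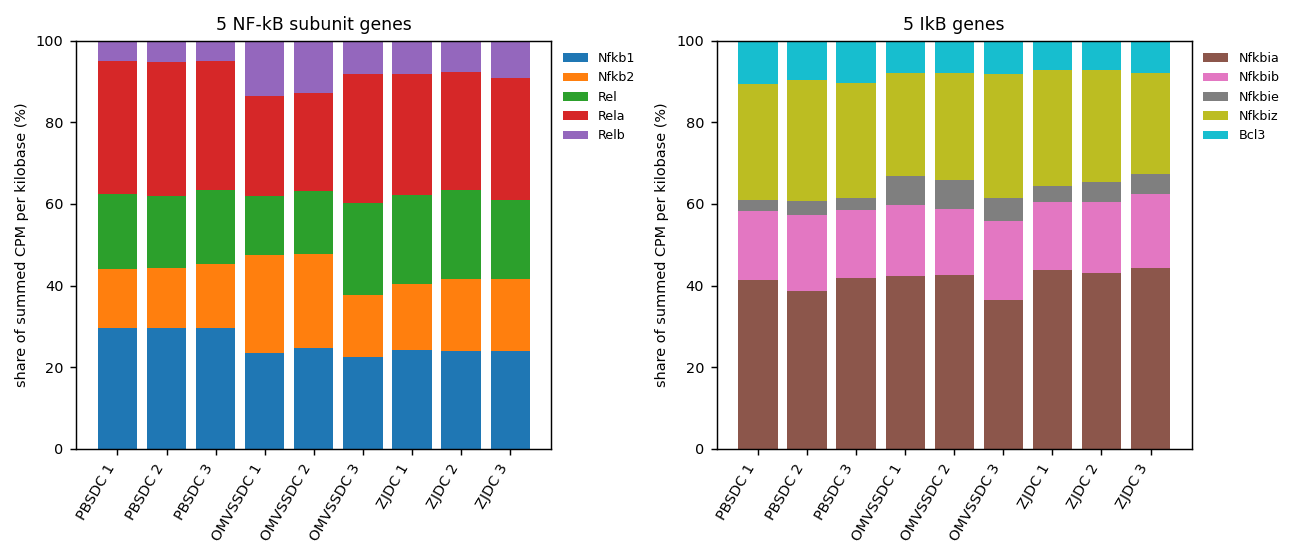
Share of each gene in the summed CPM per kilobase of the 5 subunit genes and of the 5 IkB genes, as stacked bars for each library. The Relb share is at most 5.16% in PBSDC and at least 7.67% in OMVSSDC and ZJDC, and OMVSSDC replicate 3 shows less Nfkb2 and more Rel than replicates 1 and 2.

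Genes upstream of NF-kB were mixed. Of 32 listed adaptors, ubiquitin ligases and kinases, 31 were tested; 10 rose and 10 fell in OMVSSDC, and 9 rose and 10 fell in ZJDC, with median log2 fold changes of 0.06 and 0.12. The called shares of 64.5% and 61.3% lie near the 63.6% and 54.7% of all genes. Within the IKK complex, Ikbkg, the regulatory subunit NEMO, rose by 0.79 (SE 0.121) in OMVSSDC and 0.57 (SE 0.122) in ZJDC, while Ikbkb, the kinase of the canonical pathway, fell by 0.31 (SE 0.0566) and by 0.22 (SE 0.0565). Chuk, the kinase IKK-alpha, did not pass (0.06, 95% interval -0.16 to 0.28, and -0.06, 95% interval -0.28 to 0.16). Map3k14, which encodes NIK, the kinase that starts the non-canonical pathway, fell by 0.43 (SE 0.0787, adjusted p = 0.000763) in OMVSSDC and by 0.50 (SE 0.0787, adjusted p = 0.000414) in ZJDC, in the same libraries in which Relb and Nfkb2 rose.

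The upstream genes with the smallest adjusted p were Ikbke, Birc3 and Irak2 in both comparisons. Ikbke, an IKK-related kinase, rose by 0.82 in OMVSSDC and 0.79 in ZJDC, Birc3, a ubiquitin ligase of TNF receptor signalling, by 0.96 and 1.03, and Irak2, a kinase of Toll-like receptor signalling, by 0.77 and 0.71. Of 20 other negative regulators, 8 rose and 6 fell in OMVSSDC and 10 rose and 3 fell in ZJDC, with medians of 0.19 and 0.29. The called shares were 70% and 65%, beside 63.6% and 54.7% of all genes. Tnfaip3, the ubiquitin-editing enzyme A20 and a feedback inhibitor, rose from 30.4 ± 3.57 CPM in PBSDC to 67.8 ± 2.62 CPM in OMVSSDC and 76.8 ± 1.17 CPM in ZJDC. Its log2 fold changes were 1.16 (SE 0.0860, adjusted p = 1.69e-06) and 1.34 (SE 0.0860, adjusted p = 1.07e-06). Rnf11, a component of the A20 complex, rose by 0.65 and 0.55. In ZJDC the count of called negative regulators was 13, and 7 or 8 without PBSDC replicates 1 or 2 or ZJDC replicates 1 or 2.

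Most of the known NF-kB target genes listed rose. Of 30 listed, 27 were tested, and 20 rose and 3 fell in each comparison, with medians of 1.29 in OMVSSDC and 1.22 in ZJDC. The called share was 85.2% of those tested in each, beside 63.6% and 54.7% of all genes. The list was chosen with earlier results of these data known, so this share is a description and not an independent test. The targets with the smallest adjusted p were Csf1, a macrophage growth factor, Il6, a proinflammatory cytokine, and Cxcl2, a neutrophil chemokine, in both comparisons. Cxcl2 rose by 3.27 (SE 0.147) in OMVSSDC and 3.65 (SE 0.150) in ZJDC. The 3 that fell were Il1b, Icam1 and Ebi3 in each comparison. These 3 were named because the count was small, after their values were seen. Il1b had 18, 27 and 37 counts in PBSDC, 4, 7 and 3 in OMVSSDC and 3, 2 and 11 in ZJDC. It met the filter only through PBSDC, where it was high, so a fall was built into its being tested. With Il1b set aside, Icam1 and Ebi3 still fell, so the direction was not shared by all targets. Of 7 genes known to need IkB-zeta, 6 were tested, and 4 rose and 1 fell in OMVSSDC, and 5 rose and 1 fell in ZJDC. These calls were 83.3% and 100% of those tested, beside the same shares of all genes as above. Lcn2, which binds bacterial iron carriers, rose by 2.64 (SE 0.0582) and 2.43 (SE 0.0577). Il12b, a subunit of IL-12, also passed, but had 2, 0 and 2 counts in PBSDC, 18, 25 and 25 in OMVSSDC and 17, 8 and 19 in ZJDC. It met the filter on low counts only through the groups where it was high, so a difference was built into its being tested, and no fold change is given. The gene that fell was Ebi3, a subunit of IL-27, with log2 fold changes of -1.14 (SE 0.200) and -0.69 (SE 0.195). Medians were 1.89 and 1.80. Il12b is included in these counts and medians and in those of the longer target list. Csf3 had 10, 6 and 13 counts in PBSDC, 22, 26 and 18 in OMVSSDC and 25, 18 and 29 in ZJDC. It too met the filter only through the groups where it was high, and no fold change is given. Csf3 is likewise included in the counts and medians of the IkB-zeta genes. Edn1, also tested here, stood at -0.24 (not passed) and 0.84. Il23a (9, 11 and 5 counts in PBSDC), Bcl2a1b (9, 6 and 3) and Il1a (4, 10 and 2) were also low in PBSDC and remain in the target list. Il1a was called higher in ZJDC only, where it had 30, 5 and 29 counts. The counts and medians thus rest in part on genes for which the filter built in a difference. Il6, Il12b and Ebi3 are on both target lists. Without OMVSSDC replicate 3, the genes called in OMVSSDC against PBSDC numbered 22 of 31 upstream genes, 15 of 20 negative regulators, 24 of 28 targets and 5 of 6 IkB-zeta genes. With all libraries these counts were 20, 14, 23 and 5. Calls also became more common over all genes, at 8813 of 11761 in that fit beside 7358 of 11568 with all libraries.

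**Figure D5:**
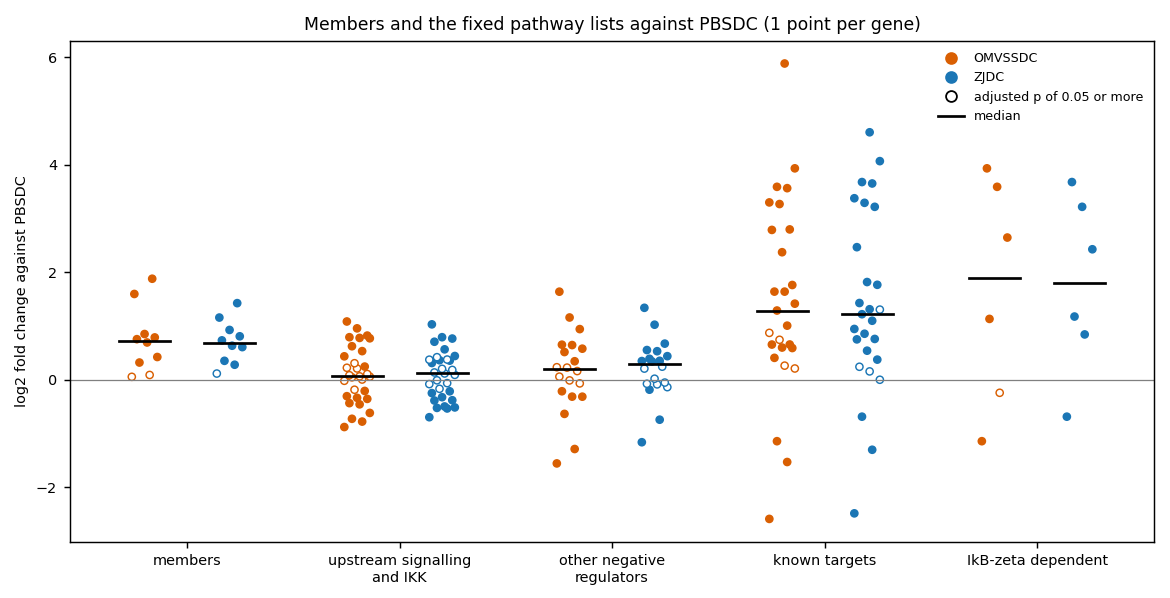
Log2 fold changes against PBSDC of the 10 members and of the genes tested in 4 pathway lists, 1 point per gene, orange for OMVSSDC and blue for ZJDC; filled points passed and black bars are medians. The upstream list is centred near 0 (medians 0.06 and 0.12), while the members (0.72 and 0.68) and the target lists lie higher.

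Between OMVSSDC and ZJDC, edgeR called 0 of 31 upstream genes, 0 of 20 negative regulators, 0 of 6 IkB-zeta genes and 1 of 27 targets. At an unadjusted p under 0.05 the counts were, in that order, 8, 6, 3 and 13, with DESeq2 6, 3, 2 and 7, and with limma-voom 0, 0, 2 and 1. Over all genes 31.8%, 14.2% and 2.79% passed by these rules. The target called was Ccl5, a chemokine that attracts T cells, which was 1.28 higher in OMVSSDC on the log2 scale (SE 0.269, adjusted p = 0.0478). Leaving out any 1 library other than OMVSSDC replicate 3 ended that call. Without OMVSSDC replicate 3, 19 of 31 upstream genes, 16 of 20 negative regulators, 21 of 28 targets and 3 of 6 IkB-zeta genes passed, beside 6539 of 11761 genes.

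For each member, the other gene with the most similar profile over the 9 libraries was found by the root mean square difference of log2 CPM centred on PBSDC, among 9460 genes with a mean of at least 5 CPM. The nearest was Ikbke for Nfkbia (0.101, Pearson r = 0.972), Mgat4b for Nfkbie (0.114, r = 0.992), Parvb for Nfkbib (0.0574, r = 0.990) and Pqlc3 for Nfkbiz (0.0559, r = 0.988). For the subunits it was Prdx5 for Relb (0.0894, r = 0.992), Lrp10 for Nfkb2 (0.0700, r = 0.986), Zfp948 for Rel (0.0407, r = 0.992), Dis3l for Rela (0.0373, r = 0.967) and Eif4a2 for Nfkb1 (0.0450, r = 0.821). For Bcl3 it was Katnip (0.0549, r = 0.968). Among the members themselves, the nearest pair was Nfkbib and Nfkbiz (0.114, r = 0.968), and Relb was nearest to Nfkbie (0.299, r = 0.967). Nfkb2 was nearest to Nfkbia (0.250, r = 0.835) rather than to Relb. Each r is a description over 9 libraries that share their groups and depth.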

How the data were processed

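The submitters' processing notes name fastp 0.22.0, HISAT2 2.1.0 and HTSeq 0.9.1, and no genome build or annotation is given in the sources used here. The deposited table holds raw counts per gene, which were analysed, and FPKM. The deposited FPKM equal counts over gene length and library total, and served only as an alternative scale. All 9 libraries, grouped by sample title, were used.

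Counts were tested in R 4.3.3 with edgeR 4.0.16: filterByExpr (minimum count 10, minimum total 15) left 11568 genes, libraries were scaled by TMM, and 1 quasi-likelihood model with robust estimation and the group as factor gave the 3 contrasts, two-sided, with Benjamini-Hochberg adjustment over all tested genes. SE was taken as log2 fold change over the root of F. CPM are TMM-scaled. Alternatives were RLE, library size alone, other filters, DESeq2 1.42.0, limma-voom (limma 3.58.1), the replicate number as a block, fits of 2 groups and leaving out each library; removal of a length and GC trend was added after seeing the data. The code was tested on simulated data. The members and gene lists were chosen with earlier results of these data known. Named genes are all members, 6 fixed pathway genes, and up to 3 per list and comparison with the smallest adjusted p.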

Additional observations from a re-analysis of the deposited data

How the results depend on the processing

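The members called higher against PBSDC numbered 7 to 9 in OMVSSDC and 8 to 10 in ZJDC over the libraries left out, and 0 were called lower. Over the same fits, 6545 to 8813 of all genes were called in OMVSSDC and 5459 to 8242 in ZJDC, in either direction. Rela in OMVSSDC against PBSDC ranged from -0.014 (without OMVSSDC replicate 3) to 0.145 over the libraries left out, and was -0.12 with the trend removed; with OMVSSDC replicate 3 alone Nfkb1 was -0.081. Scaling by library size alone moved the median of all genes in that comparison from 0.05 to 0.18, with Rela at 0.21 (adjusted p = 0.0305). The IkB-zeta genes called there numbered 3 of the 4 still tested with at least 50 counts in 3 libraries (5 of 6 otherwise), and negative regulators called in ZJDC against PBSDC ranged from 7 to 15 over the libraries left out.

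Between OMVSSDC and ZJDC, leaving out 1 library gave 0 to 3 members higher, 0 to 3 lower, 0 to 19 upstream genes, 0 to 16 negative regulators, 0 to 21 targets, 0 to 3 IkB-zeta genes and 0 to 6539 of all genes, each highest value without OMVSSDC replicate 3. DESeq2 called 1 member, 6 upstream genes, 3 negative regulators, 7 targets, 2 IkB-zeta genes and 1643 of all genes. Negative regulators called were 1 with RLE and 1 with at least 50 counts in 3 libraries; IkB-zeta genes called were 1 with library size alone, 1 with no filter and 2 with limma-voom. In the fit of these 2 groups only, 0 targets and 0 of all genes were called. With OMVSSDC replicate 3 alone, 1 member was lower and 1 negative regulator, 1 IkB-zeta gene and 355 of all genes were called; Nfkb2 was -0.29, Rel 0.0037, Relb -0.13, Nfkbib 0.12 and Nfkbiz 0.12. With the length and GC trend removed, 1 member was lower and 1 negative regulator, 3 targets, 1 IkB-zeta gene and 544 of all genes were called; Nfkb1 was 0.13 and Bcl3 -0.17. With library size alone Nfkb1 was 0.0045, Nfkbib 0.039 and Nfkbiz 0.021. Over the libraries left out, Nfkbiz ranged from -0.13 to 0.017 and Nfkbib from -0.104 to 0.041. As a geometric mean over members, the log2 IkB to subunit ratio differed by 0.29 in ZJDC against PBSDC and by 0.053 in OMVSSDC against ZJDC. The ratio of summed levels, -0.02 in the latter comparison, ranged from -0.0551 to 0.0048 over the libraries left out. The cause of these shifts was not tested.

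Replicate numbers did not pair the libraries: correlations of same-numbered libraries were -0.386 to 0.0898. With a replicate block, 0 targets and 0 of all genes were called between OMVSSDC and ZJDC, and Rel in OMVSSDC against PBSDC was 0.31 (edgeR adjusted p = 0.0683).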
